A study of Mus musculus with 12 samples.

Results

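The genes described here encode the minor collagens, basement membrane proteins, elastic fibre and microfibril proteins, proteoglycans, adhesive glycoproteins and collagen-modifying enzymes of the skin matrix. They were chosen by annotated gene symbol, under a rule set with earlier results of these data known. The rule took in collagen and laminin chains, fibrillins, fibulins, microfibril-associated proteins, elastin, lysyl oxidases, nidogens, perlecan, small leucine-rich proteoglycans and versican. It also took in fibronectin, latent TGF-beta binding proteins, Tgfbi, lysyl hydroxylases, Pcolce and hyaluronan synthases, and left out Col1a1, Col1a2, Col3a1, Col17a1 and Lama3. Of 5599 genes with a probe set, 47 met the rule, with 63 probe sets, and 36 of the 47 passed the filter, a signal above the pooled median of 475.55 units on at least 3 arrays, and were tested among 3477 genes. Signals under a floor of 225.4 units, the pooled 25th percentile, were set to that floor. RNA came from mouse skin excised at 4 times after a thermal injury, with 3 arrays each at 0 hours, 2 hours, 3 days and 14 days and 1 Affymetrix array per sample. The labels give no strain, age, sex, burn depth or number of animals, and leave it unclear if skin taken at 0 hours had been burnt and if the replicates came from separate animals. Each p-value thus rests on the variation among these arrays, which may be technical.

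Collagen I and III fibrils carry most of the tensile load of dermis, and the minor components set how those fibrils form and how cells and epidermis are tied to them. Collagen V nucleates fibrils, collagen VI forms beaded microfilaments around cells, and collagen VII forms the anchoring fibrils below the epidermis. Elastic fibres consist of elastin on a scaffold of fibrillin microfibrils with fibulins and microfibril-associated proteins, while decorin, biglycan and lumican bind collagen fibrils and versican binds hyaluronan. Basement membranes are sheets of laminin and collagen IV joined by nidogens and perlecan. Lox cross-links collagen and elastin, Plod3 modifies procollagen, and Pcolce enhances the proteinase that processes it. Pcolce is not itself an enzyme but is counted here with the modifying enzymes.

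The median signal of an array was 448.4 to 496.4 units, and precision is limited by having 3 arrays a time point. The least typical array was 0 hours replicate 3, whose Spearman correlation with the other arrays averaged 0.851, where the others reached 0.886 to 0.920. The log2 ratio of 3′ to 5′ signal of the Gapdh control probe sets, a measure of RNA quality, averaged 1.99 ± 0.29 (SD, n = 3) on the 0 hours arrays, 1.54 ± 0.46 on the 2 hours arrays, 0.52 ± 0.50 on the 3 days arrays and 0.21 ± 0.08 on the 14 days arrays. The 16 tested skeletal muscle markers summed to between 328440 and 521110 signal units in the 0 hours group, 294160 and 333610 in the 2 hours group, 112500 and 252570 in the 3 days group, and 158030 and 228680 in the 14 days group. Of 10 fibroblast markers 7 were tested, Pdgfrb and Fap lying below the filter, and none was called in any comparison. Summed, they gave 7977 to 10048 units in the 0 hours group, 11471 to 12839 in the 2 hours group, 12682 to 13927 in the 3 days group and 10958 to 12056 in the 14 days group, so that all later arrays lay above the 0 hours arrays. In bulk skin, fewer cells of a type and less RNA per cell cannot be told apart. Mfap5 is both a fibroblast marker and a gene described here. Of 13 tested macrophage markers 12 rose at 3 days against 0 hours.

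**Figure D1:**
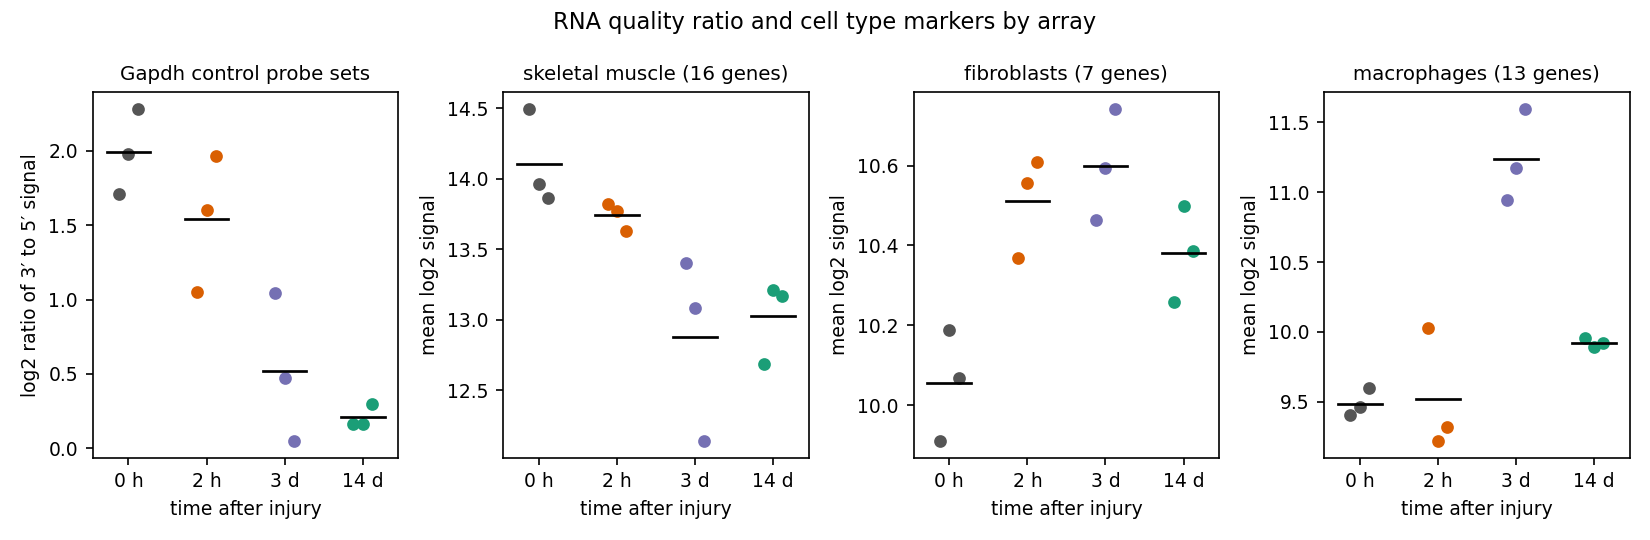
RNA quality ratio (log2 of 3′ over 5′ Gapdh control signal) and mean log2 signal of cell type markers by time point. Points are arrays and bars are means of 3 arrays. The Gapdh ratio lay between 0.163 and 0.301 on the 14 days arrays and between 1.71 and 2.28 on the 0 hours arrays, and muscle signal was also lower at 14 days.

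Expression of these genes over the 4 time points was tested with limma across all 3477 genes, and a gene is named as called where its p, adjusted by Benjamini-Hochberg, was under 0.05. An F-test over the 4 time points called 14 of the 36 tested genes (38.9%), where 21.2% of all genes tested were called. Versican, Vcan, passed the filter through 14 days and 3 days arrays alone, and without it the count was 13 of 35 (37.1%). With the Gapdh ratio in the model it was 2 of the 36, where 5.9% of all genes were called. With mean muscle signal in the model it was 11 of the 36, where 8.48% of all genes were called. By class, the called genes were 5 of 7 elastic fibre and microfibril genes, 4 of 7 minor collagens outside the basement membrane, 2 of 5 proteoglycans (1 of 4 without Vcan), 2 of 12 basement membrane zone genes, 1 of 2 adhesive glycoproteins and 0 of 3 modifying enzymes. Of the modifying enzymes 2 had an unadjusted p under 0.05 in that limma F-test, as did 1337 of all 3477 genes. No test was made of the difference between classes. Leaving out 1 array gave 10 to 16 called genes, where 13.9% to 24.8% of all genes were called. Values after ± are SEs from the limma model except where SD is named.

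At 2 hours against 0 hours, 1 of the 36 genes was called, where limma called 5.67% of all genes in either direction. An unadjusted limma p under 0.05 was found for 9 of the 36 and for 775 of all 3477 genes. The called gene, Mfap2, fell, as did 1.67% of all genes. The median log2 change was −0.56 for the modifying enzymes, −0.35 for the minor collagens and −0.11 for elastic fibre genes. It was 0.11 for proteoglycans, Vcan included, 0.12 for basement membrane zone genes and 0.05 for all genes tested. All 3 genes of the enzyme class and 6 of the 7 minor collagens had negative values, as had 1579 of all 3477 genes. The count was 0 without 0 hours replicate 3 and without any 1 of the 2 hours arrays (2.07% to 3.34% over all genes). It was 2 without 3 days replicate 3 or 14 days replicate 1 (5.67% and 5.09%), and 3 without 14 days replicate 3 (4.6%). With mean muscle signal in the model it was 5, all of them falls, where 5.46% of all genes were called in either direction.

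At 3 days against 0 hours, Col18a1 and Fbln1 rose and no gene fell, which is 2 of 36 where 8.89% of all genes were called up and 4.40% down. Medians by class lay between −0.02 for the minor collagens and 0.25 for elastic fibre genes, beside 0.02 for all genes tested. The count was 4 without 0 hours replicate 2 (16% over all genes in either direction). It was also 4, of which 1 was a fall, without 3 days replicate 1 (15.3%). It was 1 without 3 days replicate 2 (8.54%) and 0 without 3 days replicate 3 (5.12%). With all arrays 13.3% of all genes were called in either direction. Neither the rise of Col18a1 nor that of Fbln1 was called by limma with the Gapdh ratio or mean muscle signal in the model. An unadjusted limma p under 0.05 was then found for 0 and 4 of the 36, beside 192 and 356 of all 3477 genes. Against 2 hours, 6 of 36 rose at 3 days and none fell (6.10% up and 3.31% down over all genes), namely Bgn, Fbln1, Mfap2, Col5a2, Lox and Plod3. That count was 2 without 2 hours replicate 1, 2 hours replicate 2 or 14 days replicate 2 (6.7%, 4.49% and 7.56% over all genes). It was 1 without 2 hours replicate 3, 3 days replicate 2 or 3 days replicate 3 (4.06%, 3.85% and 3.22%). It was 0 by limma with either covariate. An unadjusted limma p under 0.05 was then found for 1 and 4 of the 36, beside 219 and 378 of all 3477 genes.

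At 14 days against 0 hours, 9 of the 36 genes rose and none fell, where 6.90% of all genes were called up and 3.25% down. They were 3 minor collagens (Col6a1, Col6a2 and Col6a3), 3 elastic fibre genes (Fbln1, Fbln2 and Mfap2), 2 proteoglycans (Bgn and Vcan) and 1 basement membrane zone gene (Col7a1). Without Vcan the count was 8 of 35. All 7 minor collagens and all 7 elastic fibre genes tested had positive values, as had 1942 of all 3477 genes. The medians were 0.76 for the minor collagens and 0.95 for elastic fibre genes, beside 0.05 for all genes. They were 0.38 for proteoglycans, 0.14 for the basement membrane zone, −0.11 for modifying enzymes and −0.38 for the adhesive glycoproteins. The proteoglycan median includes Vcan, and the other 4 proteoglycans had 0.87 (Bgn), 0.38 (Lum), 0.11 (Ogn) and −0.16 (Dcn). The count was 3 without 0 hours replicate 1 (4.52% over all genes), 5 without 14 days replicate 2 (6.07%) and 1, Col6a3, without 14 days replicate 1 (3.42%). With all arrays 10.2% of all genes were called in either direction. No rise was called by limma once the Gapdh ratio or the mean muscle signal entered the model as a covariate. Of all 3477 genes 2 and 13 were then called. An unadjusted limma p under 0.05 was found for 1 and 8 of the 36 genes, beside 185 and 338 of all 3477. Both measures differ between these time points and cannot be told apart from time here.

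At 14 days against 2 hours, 12 of 36 rose and 1, Tgfbi, fell, where 6.84% of all genes were called up and 5.44% down. Without Vcan 11 of 35 rose. This comparison shares its 14 days arrays with the one above. Its medians were 1.11 for the minor collagens, 1.06 for elastic fibre genes and 0.45 for modifying enzymes, beside −0.004 for all genes. They were 0.34 for proteoglycans, 0.09 for the basement membrane zone and −0.40 for the adhesive glycoproteins. The proteoglycan median includes Vcan, and the other 4 proteoglycans had 1.61 (Bgn), 0.34 (Lum), −0.33 (Ogn) and −0.44 (Dcn). The count was 8 without 2 hours replicate 3 or 14 days replicate 2 (6.04% and 5.84% over all genes in either direction). Adding mean muscle signal as a covariate left 5 calls, where 3.31% of all genes were called. Adding the Gapdh ratio left 0, with 28 calls over all genes. With that ratio, 5 of the 36 had an unadjusted limma p under 0.05, beside 247 of all 3477 genes. Of the 5 tested adipocyte markers 3 fell at 14 days against 2 hours, with a median log2 change of −1.23 and summed signals of 6035 to 11890 at 14 days, against 19244 to 32926 at 2 hours. Their part in the result was not tested.

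At 14 days against 3 days, between which the Gapdh ratio and the muscle signal differed least, 5 of 36 rose (Col7a1, Mfap2, Mfap4, Col6a1 and Col6a2) and 1, Tgfbi, fell, where 1.29% of all genes were called up and 2.10% down. Adding the Gapdh ratio to the model left 3 of the rises called, those of Col7a1, Mfap2 and Mfap4, and adding mean muscle signal left all 6. The count was 3 without 14 days replicate 1 (2.67% over all genes). It was 2 without 14 days replicate 2 (1.7%) or without any 1 of the 3 days arrays (1.84% to 3.16%).

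**Figure D2:**
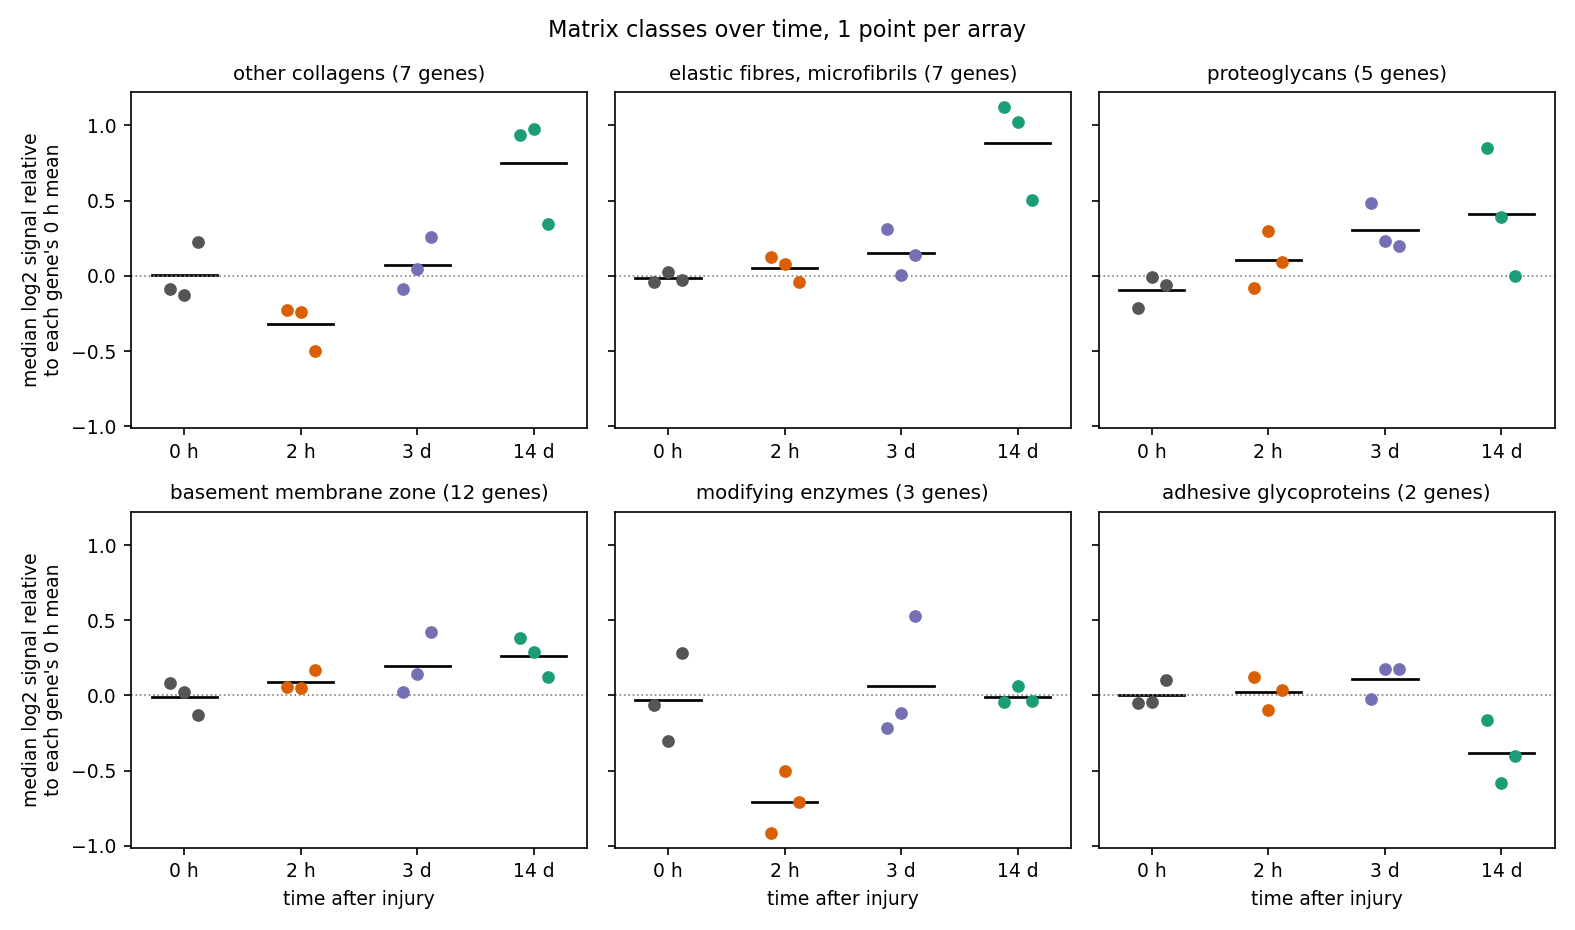
Median log2 signal of each matrix class on each array, after subtracting each gene's mean at 0 hours, by time after injury. Points are arrays and bars are means of 3 arrays. The minor collagens and the elastic fibre genes are highest on the 14 days arrays. In both classes 14 days replicate 3 is the lowest of the 3. The proteoglycan panel includes Vcan, which passed the filter through later arrays alone.

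Collagen VI is a heterotrimer whose alpha chains are encoded by Col6a1, Col6a2 and Col6a3, and all 3 genes were higher at 14 days. Col6a3 had signals of 4608, 4982 and 5108 at 0 hours, 5935, 5532 and 5149 at 2 hours, 7018, 6512 and 8162 at 3 days, and 16597.5, 12780.5 and 8450 at 14 days. Every 14 days array was above every earlier array. Col6a3 rose 2.48-fold at 14 days against 0 hours (log2 change 1.31 ± 0.22, limma adjusted p = 0.00259) and 2.20-fold against 2 hours (1.14 ± 0.22), and both calls held with each array left out in turn. Col6a2 had signals of 2972, 2527 and 5147 at 0 hours, 2975, 1727 and 1991 at 2 hours, 2580, 3506 and 4059 at 3 days, and 8140, 7877 and 6082 at 14 days. Its 14 days arrays were again above all others, and 0 hours replicate 3 was the highest of the earlier arrays. Col6a2 rose 2.16-fold at 14 days against 0 hours (1.11 ± 0.28), 3.37-fold against 2 hours (1.75 ± 0.28, limma adjusted p = 0.00132) and 2.20-fold against 3 days (1.14 ± 0.28). Col6a1 had signals of 5761, 5444 and 5495.5 at 0 hours, 4468, 4795 and 3919 at 2 hours, 5234, 4918 and 5603.5 at 3 days, and 10664.5, 10962 and 7180 at 14 days. It rose 1.70-fold against 0 hours (0.76 ± 0.19), 2.15-fold against 2 hours (1.11 ± 0.19, limma adjusted p = 0.00236) and 1.80-fold against 3 days (0.85 ± 0.19). A dimmer probe set of Col6a1 gave 0.73, 0.88 and 1.12 in these comparisons.

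The calls of Col6a1 and Col6a2 against 2 hours held with each array left out. Against 0 hours, that of Col6a1 was lost without 0 hours replicate 1, 14 days replicate 1 or 14 days replicate 2 (limma adjusted p of 0.054, 0.10 and 0.090), and that of Col6a2 without 0 hours replicate 1 or 2 or 14 days replicate 1 or 2 (0.078, 0.062, 0.090 and 0.075). Against 3 days, Col6a1 was lost without any 1 of the 3 days arrays (0.055, 0.11 and 0.059) or 14 days replicate 1 or 2 (0.10 and 0.14), and Col6a2 was kept in 5 of 12 such fits, with limma adjusted p up to 0.16 without 14 days replicate 2.

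The stretches upstream of the collagen VI genes and of Mfap2, the gene with the smallest F-test p, are shown because these genes were highest at 14 days together. Each is the 250 bases before the most upstream annotated start, 5′ to 3′ on the strand of the gene, from RefSeq (GRCm38.p6), at chr10:76726045-76726294 (minus strand) for Col6a1, chr10:76623631-76623880 (minus) for Col6a2, chr1:90843972-90844221 (minus) for Col6a3 and chr4:141010174-141010423 (plus) for Mfap2. Capitals mark matches on either strand to TATAAA of the TATA box, to GGGCGG of the GC box, to the letters CCAAT of the box so named, or to TGANTCA of the AP-1 site. None of these matches overlapped.
Col6a1: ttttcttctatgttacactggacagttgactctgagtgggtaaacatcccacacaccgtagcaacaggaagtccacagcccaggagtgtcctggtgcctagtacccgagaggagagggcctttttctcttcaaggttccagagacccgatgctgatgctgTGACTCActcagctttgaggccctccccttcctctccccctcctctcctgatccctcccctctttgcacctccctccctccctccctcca
Col6a2: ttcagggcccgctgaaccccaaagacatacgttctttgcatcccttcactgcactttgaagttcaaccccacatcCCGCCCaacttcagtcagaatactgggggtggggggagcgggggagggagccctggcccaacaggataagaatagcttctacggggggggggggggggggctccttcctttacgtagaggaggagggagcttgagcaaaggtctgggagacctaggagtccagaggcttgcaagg
Col6a3: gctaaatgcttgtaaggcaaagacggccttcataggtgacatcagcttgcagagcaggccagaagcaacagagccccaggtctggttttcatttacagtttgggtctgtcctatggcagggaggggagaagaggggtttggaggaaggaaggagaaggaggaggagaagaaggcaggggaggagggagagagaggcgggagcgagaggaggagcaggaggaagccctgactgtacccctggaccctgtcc
Mfap2: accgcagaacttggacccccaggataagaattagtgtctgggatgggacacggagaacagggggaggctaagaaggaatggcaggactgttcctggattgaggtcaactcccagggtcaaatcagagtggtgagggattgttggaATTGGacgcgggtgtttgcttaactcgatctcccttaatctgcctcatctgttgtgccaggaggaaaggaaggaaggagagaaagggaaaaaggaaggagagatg
None of the 4 windows held TATAAA, which 12.4% of 32851 windows of 250 bases over all genes held. Those windows were taken before every listed start of a gene, not only the most upstream. Col6a1 held 1 match to TGANTCA (6.75% of all windows), Col6a2 held 1 to GGGCGG (32.7%), Mfap2 held 1 to CCAAT (33.8%), and the Col6a3 window held none of the 4. No motif was common to the 3 collagen VI windows. Their GC content was 56.0%, 59.2% and 57.2% for Col6a1, Col6a2 and Col6a3, and 51.2% for Mfap2. A match describes the letters only.

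The collagen V chains, which start fibrils with collagen I, had their lowest mean signals at 2 hours. Col5a2 had signals of 3128, 3761 and 4325 at 0 hours, 2304, 2617 and 2683 at 2 hours, 3853, 4054 and 7557.5 at 3 days, and 8794, 6721 and 4701 at 14 days. The 2 hours arrays lay below every other array, and 3 days replicate 3 was the highest of its group. Col5a2 rose 2.58-fold at 14 days against 2 hours (1.37 ± 0.27, limma adjusted p = 0.00601), held with each array left out, and 1.94-fold at 3 days against 2 hours (0.96 ± 0.27), kept in 5 of 12 such fits with 0.64 and a limma adjusted p of 0.22 without 3 days replicate 3. Against 0 hours its 14 days change was 0.82 ± 0.27 and was not called. Col5a1 had signals of 3233, 2994 and 3615.5 at 0 hours, 1687, 2116 and 1754 at 2 hours, 2012, 2269 and 3020 at 3 days, and 5157, 3458.5 and 2300 at 14 days. The 14 days arrays spanned the whole 0 hours range. Col5a1 rose 1.87-fold at 14 days against 2 hours (0.90 ± 0.26, limma adjusted p = 0.0345), a call lost without any 1 of the 2 hours arrays (0.092, 0.064 and 0.11) or without 14 days replicate 1 or 2 (0.16 and 0.097). Its other bright probe set gave 1.11 in that comparison, and 0.75 against 0 hours where the brighter one gave 0.08.

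Col14a1, a fibril-associated collagen, and Col9a2, a collagen of cartilage fibrils, were not called in any comparison. Their log2 changes at 14 days against 0 hours were 0.35 ± 0.32 and 0.15 ± 0.20. Col14a1 signals ran between 341 and 971 over the 12 arrays and Col9a2 signals between 412 and 627.5.

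**Figure D3:**
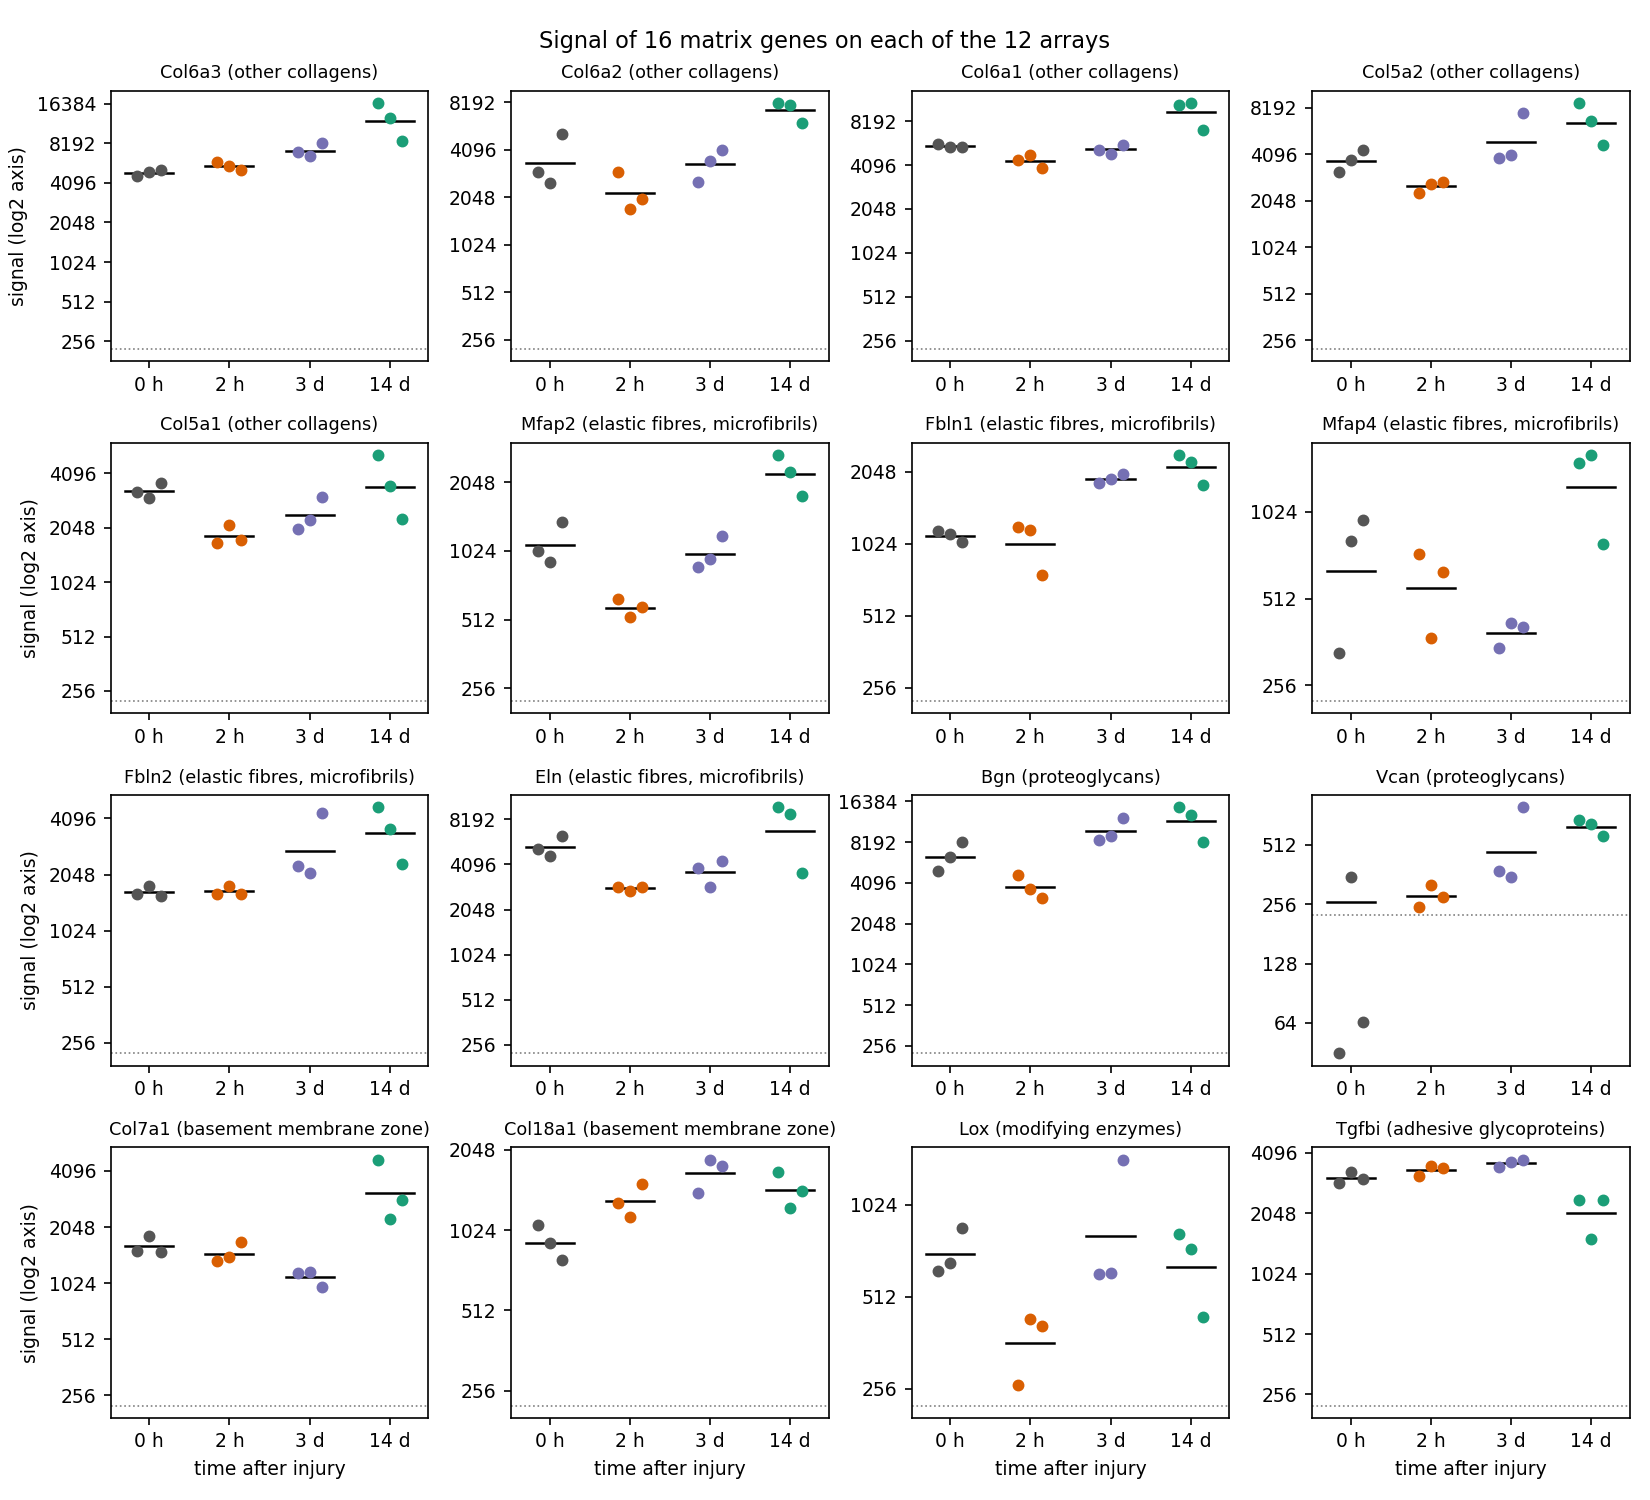
Signal of 16 genes (log2 axis) on each of the 12 arrays by time after injury. Points are arrays, bars are means on the log2 scale with values under the floor set to it, and the dotted line is the floor of 225.4 signal units. The collagen VI genes and Mfap2 have their 3 highest arrays at 14 days, and Tgfbi has its 3 lowest there.

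Among elastic fibre genes, Mfap2, a glycoprotein of fibrillin microfibrils also called MAGP-1, had the smallest F-test p of the 36 (limma adjusted p = 0.000296). Its signals were 1020, 912 and 1371 at 0 hours, 630, 526 and 583 at 2 hours, 871, 939 and 1195 at 3 days, and 2689, 2274 and 1776 at 14 days. The 2 hours arrays were the lowest 3 and the 14 days arrays the highest 3 of the 12. Mfap2 fell by 0.91 ± 0.22 on the log2 scale at 2 hours against 0 hours (limma adjusted p = 0.0245). It rose 2.04-fold at 14 days against 0 hours (1.03 ± 0.22), 3.83-fold against 2 hours (1.94 ± 0.22, limma adjusted p = 5.96e-05) and 2.23-fold against 3 days (1.16 ± 0.22, limma adjusted p = 0.00631). The calls of 14 days against 2 hours and against 3 days held with each array left out. The 2 hours fall was lost without 0 hours replicate 3 or any 1 of the 2 hours arrays (0.086, 0.055, 0.088 and 0.088), and the 14 days rise against 0 hours without 14 days replicate 1 (0.055). At 3 days against 2 hours Mfap2 rose by 0.78 ± 0.22, kept in 6 of 12 such fits and lost without any 2 hours array (0.060, 0.13 and 0.11), 3 days replicate 2 or 3 (0.086 and 0.17) or 14 days replicate 2 (0.052).

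Elastin itself, Eln, was measured by 1 bright probe set with signals of 5229, 4646 and 6389.5 at 0 hours, 2901, 2719 and 2891 at 2 hours, 3861, 2882.5 and 4354 at 3 days, and 9850, 8943 and 3601 at 14 days. At 14 days, replicate 3 lay below all 0 hours arrays while replicates 1 and 2 lay above them. Eln rose 2.41-fold at 14 days against 2 hours (1.27 ± 0.31, limma adjusted p = 0.0160), a call lost without 2 hours replicate 2 or 3 (0.062 and 0.055) or 14 days replicate 1 or 2 (0.088 and 0.080). Its other changes, −0.92 ± 0.31 at 2 hours and 0.34 ± 0.31 at 14 days against 0 hours, were not called. A dim second probe set of Eln, at the floor on 10 of 12 arrays, carries no information.

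The fibulins Fbln1 and Fbln2 bind elastic fibres, fibronectin and basement membranes. Fbln1 had signals of 1159, 1125 and 1041 at 0 hours, 1206, 1168 and 760.3 at 2 hours, 1848, 1908 and 2004 at 3 days, and 2407, 2248 and 1810 at 14 days. All 3 days and 14 days arrays were above all arrays of the earlier times. Fbln1 rose 1.73-fold at 3 days (0.79 ± 0.20, limma adjusted p = 0.0188) and 1.93-fold at 14 days (0.95 ± 0.20, limma adjusted p = 0.0100) against 0 hours, and 1.88-fold and 2.09-fold against 2 hours. Of these, only the call of 14 days against 2 hours held with each array left out, and the others were lost without 1 to 3 of the arrays, with limma adjusted p between 0.051 and 0.078. The 3 probe sets of Fbln1 above the filter level on all 12 arrays gave 0.28, 0.65 and 0.95 at 14 days against 0 hours and 0.24, 0.35 and 0.79 at 3 days. Another, dim one, at the floor on 5 arrays, passed the filter through the 3 arrays at 14 days and 1 at 3 days, so its 1.78 at 14 days is a description only. With that probe set, the most variable, the 3 days changes were not called against 0 hours (0.37) or 2 hours (0.35).

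Fbln2 had signals of 1620, 1782 and 1564 at 0 hours, 1618, 1780.5 and 1603 at 2 hours, 2273, 2086 and 4388.5 at 3 days, and 4697, 3593 and 2345 at 14 days. As for Fbln1, the 0 hours and 2 hours arrays lay below the later 6. Fbln2 rose 2.06-fold at 14 days against 0 hours (1.04 ± 0.28, limma adjusted p = 0.0299) and 2.05-fold against 2 hours (1.03 ± 0.28). The first call was lost without 0 hours replicate 1 or 3 (0.078 and 0.066) or 14 days replicate 1 or 2 (0.13 and 0.086), and the second without any 2 hours array (0.068, 0.071 and 0.092) or 14 days replicate 1 or 2 (0.14 and 0.092).

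Mfap4, a microfibril-associated glycoprotein, had signals of 331.7, 811.3 and 962.8 at 0 hours, 733.0, 373.2 and 634.0 at 2 hours, 343.2, 419.4 and 406.5 at 3 days, and 1517, 1615 and 790.0 at 14 days. Its 0 hours arrays spread widely, and the 3 days arrays were tightly grouped and low. It rose 3.21-fold at 14 days against 3 days (1.68 ± 0.38, limma adjusted p = 0.0221), lost without any 1 of the 3 days arrays (0.064, 0.060 and 0.059) or 14 days replicate 1 or 2 (0.086 and 0.12). The probe set may also bind related transcripts, as its suffix for shared sequence shows. Ltbp4, which tethers latent TGF-beta to microfibrils, and Mfap5 were not called in any comparison, with 0.56 ± 0.18 and 0.21 ± 0.20 at 14 days against 0 hours. For Ltbp4 every 2 hours and 14 days array, between 2748 and 3696, lay above the 0 hours arrays, between 2179 and 2442.

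Of the 5 tested proteoglycans, Bgn was called, Vcan entered only through its later arrays, and Dcn, Lum and Ogn were not called. Bgn, the small leucine-rich proteoglycan biglycan, had signals of 5020, 6360 and 8224 at 0 hours, 4697, 3712 and 3180 at 2 hours, 8538.5, 9042.5 and 12445 at 3 days, and 14805, 12949 and 8280 at 14 days. The 2 hours arrays were below all others and every 3 days and 14 days array was above every 0 hours array. Bgn rose 2.59-fold at 3 days (1.37 ± 0.26, limma adjusted p = 0.00475) and 3.06-fold at 14 days (1.61 ± 0.26, limma adjusted p = 0.00132) against 2 hours, and both calls held with each array left out. Against 0 hours it rose 1.82-fold at 14 days (0.87 ± 0.26, limma adjusted p = 0.0476), a call next to the threshold and kept in 3 of 12 such fits. It was lost without 0 hours replicate 1 (0.16), 0 hours replicate 2 (0.072), 14 days replicate 1 (0.19), 14 days replicate 2 (0.13), any 2 hours array or 3 days replicate 1 or 2 (0.050 to 0.064). A dimmer probe set of Bgn gave 0.18 in that comparison, and 0.25 and 0.40 at 3 days and 14 days against 2 hours.

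Vcan, the hyaluronan-binding proteoglycan versican, was dim, at 44.9, 352.4 and 64.4 at 0 hours, 248.7, 321.5 and 278.7 at 2 hours, 378.2, 351.6 and 794.6 at 3 days, and 688.1, 655.7 and 566.4 at 14 days. It passed the filter only through the 3 arrays at 14 days and 1 at 3 days, so it could enter only if it was high there, and its values are a description with no test. At 14 days it was at least 2.43-fold higher than at 0 hours (log2 difference 1.28), a lower bound because 2 of the 3 arrays at 0 hours lay under the floor of 225.4. The log2 difference was 1.94 with the floor at the 10th percentile and 0.82 with it at the 40th. It was 2.26-fold higher at 14 days than at 2 hours.

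The other small leucine-rich proteoglycans were not called in any comparison. Dcn, decorin, had signals of 14454 to 16412 at 0 hours, 12730 to 22181 at 2 hours, 16282 to 17701 at 3 days and 12926 to 14465 at 14 days, with a change of −0.16 ± 0.21 at 14 days against 0 hours. The log2 change was 0.38 ± 0.23 for Lum, lumican, and 0.11 ± 0.32 for Ogn, osteoglycin, with overlapping arrays in both. A second probe set of Ogn gave 0.79, but it was above the filter level on no 0 hours array and on 5 later arrays.

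**Figure D4:**
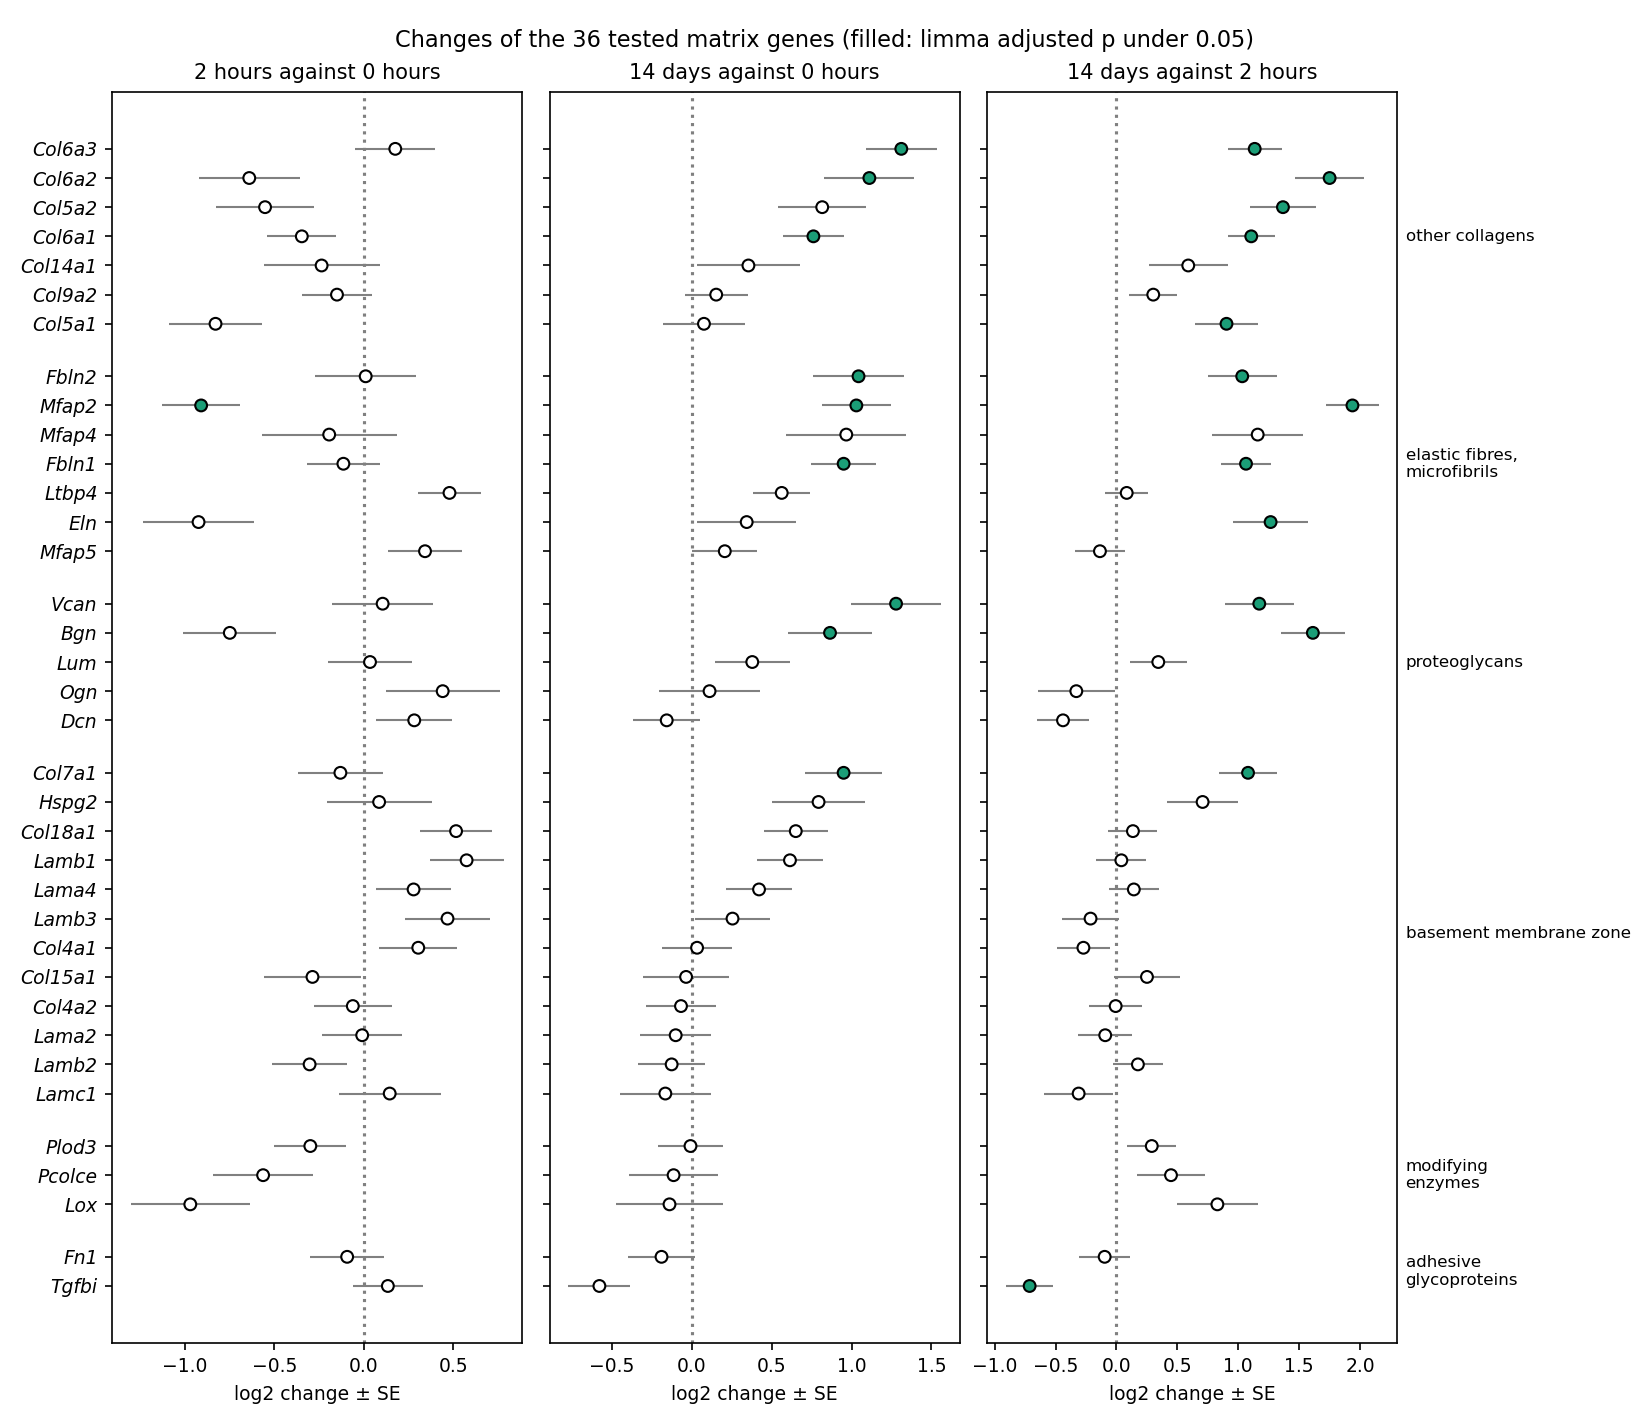
Log2 changes of the 36 tested genes (x axis, ± SE of the limma fit) in 3 comparisons, grouped by matrix class down the page. Filled points passed a limma adjusted p under 0.05. At 14 days the filled points lie mainly among collagen VI, elastic fibre genes and the proteoglycans Bgn and Vcan, the last of which passed the filter through later arrays alone, while 11 of 12 basement membrane zone genes are open in the comparison with 0 hours.

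In the basement membrane zone, the called genes were Col7a1 and Col18a1. Col7a1, the collagen of anchoring fibrils, which keratinocytes and fibroblasts make, had signals of 1528, 1825 and 1508.5 at 0 hours, 1339, 1411 and 1697 at 2 hours, 1161, 1173.5 and 972.0 at 3 days, and 4709, 2259 and 2852 at 14 days. The 3 days arrays were the lowest 3 and the 14 days arrays the highest 3. Col7a1 rose 2.84-fold at 14 days against 3 days (1.51 ± 0.24, limma adjusted p = 0.00200) and 2.12-fold against 2 hours (1.08 ± 0.24), both held with each array left out, and 1.93-fold against 0 hours (0.95 ± 0.24, limma adjusted p = 0.0225). The last call was lost without 0 hours replicate 1 (0.069), 0 hours replicate 3 (0.050) or 14 days replicate 1 (0.10). The 6 tested keratinocyte markers had a summed signal of 54342 to 75898 at 14 days, against 35519 to 43337 at 3 days. Singly, 4 were higher and 2 lower at 14 days than at 3 days, with 1 called up and a median log2 change of 0.27. Against 2 hours, 1 was higher and 5 were lower at 14 days. The part of these markers in the rise of Col7a1 was not tested.

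Col18a1, a basement membrane collagen whose carboxy-terminal fragment is endostatin, had signals of 1069, 914.9 and 793.1 at 0 hours, 1294, 1147 and 1527 at 2 hours, 1411, 1879 and 1772 at 3 days, and 1686, 1238 and 1439 at 14 days. All later arrays were above the 0 hours arrays. It rose 1.82-fold at 3 days against 0 hours (0.87 ± 0.20, limma adjusted p = 0.0116), a call lost without 3 days replicate 2 (0.053) or replicate 3 (0.055). At 14 days the change was 0.65 ± 0.20 and was not called. A dimmer probe set gave 0.81 at 3 days and 0.99 at 14 days, but −0.42 at 2 hours, where the probe set used gave 0.52. It was above the filter level on 1 array at 0 hours and on all 6 at 3 days and 14 days. Another gave 0.24 at 2 hours, 1.53 at 3 days and 1.69 at 14 days. This last one passed the filter through 3 days and 14 days arrays alone, with 2 arrays at the floor, so its values are a description only.

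The other 10 tested genes of the zone were not called in any comparison. Collagen IV chains form the network of every basement membrane, and Col4a1 and Col4a2 lie head to head on chromosome 8. Their annotated starts (RefSeq, GRCm38.p6) are 21 bases apart, at 11312826 (minus strand) for Col4a1 and 11312805 (plus) for Col4a2. The annotated 5′ ends of these genes thus overlap. Their changes at 14 days against 0 hours were 0.03 ± 0.22 and −0.07 ± 0.22, and at 2 hours 0.30 ± 0.22 and −0.06 ± 0.22. Col4a1 signals ran between 2629 and 4609 and Col4a2 signals between 2817 and 4611. The laminin chains spread around zero, with changes at 14 days between −0.17 ± 0.29 for Lamc1 and 0.61 ± 0.21 for Lamb1. Lamb1 had all 9 later arrays between 389.4 and 611.7, of which 8 were above the highest 0 hours array (429.3). No 0 hours array of Lamb1 reached the filter level, and its probe set and that of Lamc1 carry the suffix for shared sequence. At 3 days the log2 change was 0.64 ± 0.24 for Lamb3, a chain of the laminin below the epidermis, 0.55 ± 0.21 for the vascular chain Lama4 and −0.46 ± 0.22 for Lama2, the chain of muscle basement membrane. Hspg2, perlecan, had a value of 0.79 ± 0.29 at 14 days, while Col15a1 (−0.04 ± 0.27) and Lamb2 (−0.13 ± 0.21) lay near zero.

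The modifying enzymes had negative values at 2 hours that were not called, and Lox and Plod3 were called at 3 days against 2 hours. Lox, lysyl oxidase, had signals of 620.6, 660.5 and 856.4 at 0 hours, 263.0, 433.4 and 411.1 at 2 hours, 608.4, 610.3 and 1437.5 at 3 days, and 818.0, 731.7 and 439.0 at 14 days. Every 2 hours array was below every other array, and 3 days replicate 3 was the highest of all. Lox rose 2.25-fold at 3 days against 2 hours (1.17 ± 0.33, limma adjusted p = 0.0400), a call kept in 5 of 12 fits with an array left out. Without 3 days replicate 3 the change was 0.76 (limma adjusted p = 0.20), and the call was also lost without any 1 of the 2 hours arrays (0.14, 0.074 and 0.089), 0 hours replicate 2, 3 days replicate 2 or 14 days replicate 2 (0.051 to 0.053). The change at 2 hours against 0 hours, −0.97 ± 0.33, was not called. Plod3, a lysyl hydroxylase and collagen glucosyltransferase, rose 1.60-fold at 3 days against 2 hours (0.67 ± 0.20, limma adjusted p = 0.0492), kept in 4 of 12 such fits and in 2 of 10 other settings. Pcolce, which enhances procollagen C-proteinase, was not called in any comparison, with −0.56 ± 0.28 at 2 hours and −0.11 ± 0.28 at 14 days against 0 hours.

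Tgfbi, a TGF-beta induced adhesive protein that binds integrins and collagens, was the gene that fell late. Its signals were 2903, 3285 and 3020 at 0 hours, 3146, 3525 and 3434 at 2 hours, 3493, 3671 and 3789 at 3 days, and 2388, 1524 and 2379 at 14 days. The 14 days arrays were the lowest 3 of the 12. Tgfbi fell by 0.83 ± 0.19 on the log2 scale at 14 days against 3 days (limma adjusted p = 0.0280) and fell by 0.71 ± 0.19 against 2 hours (limma adjusted p = 0.0281), while its change against 0 hours, −0.58 ± 0.19, was not called. The call against 3 days was lost without any 1 of the 3 days arrays (0.052, 0.11 and 0.10) or 14 days replicate 2 (0.18), and that against 2 hours without 2 hours replicate 2 or 3 (0.096 and 0.091) or 14 days replicate 2 (0.13). The 13 tested macrophage markers had a summed signal of 18864 to 21324 at 14 days, against 35902 to 56042 at 3 days, and their part in the fall of Tgfbi was not tested. Fn1, fibronectin, was not called in any comparison, and its changes against 0 hours lay between −0.19 ± 0.21 at 14 days and −0.03 ± 0.21 at 3 days. Its signals ran between 1685 and 2672 over the 12 arrays.

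Of the other matrix genes in a list of collagen-processing enzymes, matricellular proteins, growth factors and proteases, 19 were tested, and 13 were called in the F-test (68.4%), where 21.2% of all genes were. At 3 days against 0 hours 5 of them rose and 1 fell (8.89% up and 4.40% down over all genes), and at 14 days against 0 hours 6 rose and 2 fell (6.90% and 3.25%). At 14 days against 2 hours 8 rose and 1 fell (6.84% and 5.44%). Mmp9, Tgfb1, Timp2 and Tnc were among the rises in each of these comparisons, and had 2 or 3 of their 0 hours arrays at the floor. Tgfb1 was at the floor on every 0 hours and 2 hours array, so it passed the filter through later arrays alone. The counts of this list, the F-test included, are thus a description only. Postn, a collagen-binding matricellular protein, rose by 2.09 ± 0.33 at 14 days against 0 hours, and Thbs2, a thrombospondin that affects fibril assembly, rose by 1.87 ± 0.28. Mmp3, stromelysin, fell by 1.36 ± 0.29. Of the major fibrillar chains, Col1a1, Col1a2 and Col3a1 all fell at 2 hours against 0 hours, with log2 changes of −0.92, −1.61 and −0.87. At 3 days against 0 hours Col1a1 (−0.95) and Col1a2 (−1.27) fell, and Col3a1 had a value of −0.36 that was not called. At 14 days against 0 hours none was called, with −0.45, −0.54 and −0.22, while Col1a2 rose by 1.07 at 14 days against 2 hours. The difference between these chains and the collagen VI genes was not tested.

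Of the 47 genes, 11 did not pass the filter and were not tested. They were Nid1, Nid2, Ltbp1, Ltbp2, Col8a1, Col9a3, Col12a1, Col26a1, Loxl1, Has1 and Has2, each with 1 probe set and with signals between 20.6 and 875.0. Has2 was at the floor on 11 of 12 arrays, Ltbp1 on 10, Nid2 and Col12a1 on 9 and Nid1 on 7, so no change of these could be measured. Among the 36 tested, 6 genes had more than 1 probe set past the filter, 15 in all. Of these, 1 each of Fbln1, Col18a1 and Ogn had no 0 hours array above the filter level, which favours a positive change against 0 hours, so the directions of the 15 are not counted.

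**Figure D5:**
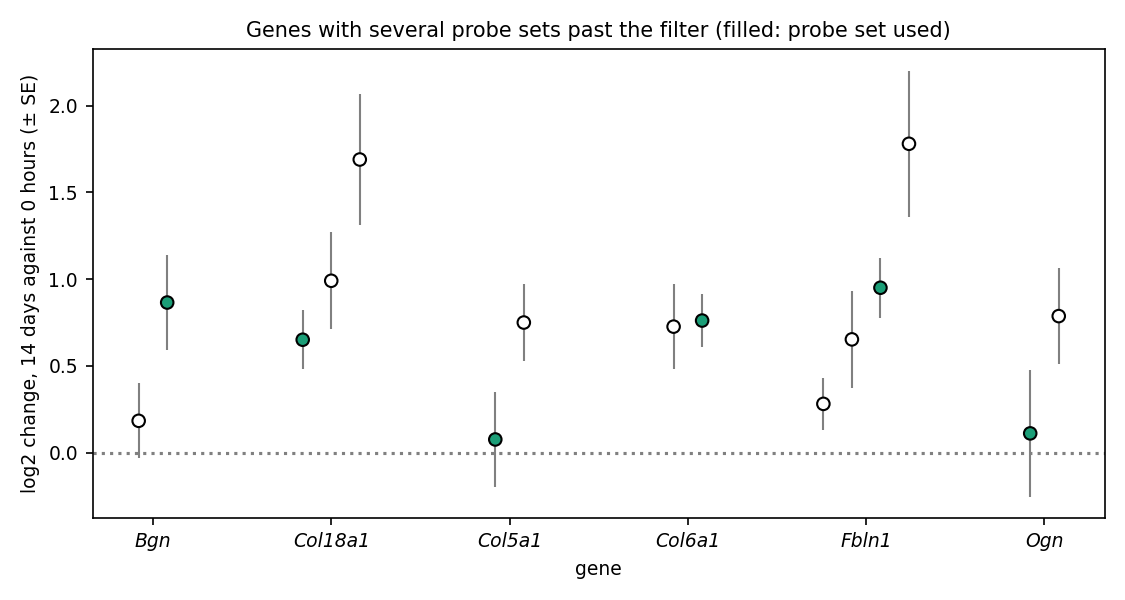
Log2 change at 14 days against 0 hours (± SE of the limma fit without a filter) for each probe set past the filter of the 6 genes with more than 1. Filled points are the probe sets used. Both probe sets of Col6a1 lie close together (0.73 and 0.76), while the highest values of Fbln1 (1.78) and Col18a1 (1.69) come from dim probe sets that passed the filter through later arrays alone.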

How the data were processed

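RNA from 12 mouse skin samples was measured on 1 Affymetrix array each. For each probe set the authors deposited 1 linear intensity, with no detection call. Their software, scaling and choice of probe sets: not given in the sources used here. Of 7275 probe sets, 6551 named exactly 1 gene in GEO's platform annotation, 251 several and 446 none, and 27 were controls. The 2% trimmed means of the arrays lay between 818.2 and 909.6, so no further scaling was applied. Values were floored at the pooled 25th percentile (225.375) and log2-transformed, and a probe set was kept if 3 or more arrays exceeded the pooled median of 475.55. The probe set with the highest mean stood for its gene.

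The model (limma 3.58.1 in R 4.3.3) held all 12 arrays and a mean for each time point, with 8 residual and 6.638 prior degrees of freedom, and p-values were adjusted over all 3477 genes. With 3 arrays a group, an exact permutation test reaches 0.1 at the lowest. The procedure was tested on simulated data. The gene rule, classes, marker and gene lists and tests were chosen with earlier results of these data known. Values on every array are given for the 16 called genes with the smallest F-test p, and other genes are given by ranges and counts. Replicate numbers were not taken as pairs, since deviations from the group means correlated above 0.1 in 2 of 18 same-numbered array pairs (median −0.066). Each result was recomputed with quantile normalization, with median scaling, with lower and higher floors (10th, 40th percentile), unfiltered, with a stricter filter (75th percentile), with the most variable probe set of each gene, with replicate as a block, with either the Gapdh ratio or mean muscle signal as covariate, with just the pair of time points, and without each array in turn. Figures were drawn with Python 3.11.15 and matplotlib 3.10.9.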

Additional observations from a re-analysis of the deposited data

How the results depend on the processing

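The 37 called changes and 14 F-test calls were recomputed under the alternatives that gave a value, 1152 results in all. Of these, 896 kept the call and 256 lost it. Among the changes 0 changed sign, while an F-test result has no direction. Leaving out an array of another time point does not alter a log2 change, so those fits could not change a sign either. The Vcan results, a description only, are counted among the 1152. With 1 array left out, the number of called genes ran from 10 to 16 in the F-test (14 with all arrays), 0 to 3 at 2 hours against 0 hours (1), 0 to 4 at 3 days against 0 hours (2), 1 to 11 at 14 days against 0 hours (9), 1 to 8 at 3 days against 2 hours (6), 8 to 14 at 14 days against 2 hours (13) and 2 to 7 at 14 days against 3 days (6). Over all genes, the share called in the same fits moved too, from 13.9% to 24.8% in the F-test (21.2% with all arrays). Against 0 hours it ran from 2.07% to 9.09% at 2 hours (5.67%) and 5.12% to 16% at 3 days (13.3%). It ran from 3.42% to 14% at 14 days (10.2%). Against 2 hours it ran from 3.22% to 11.8% at 3 days (9.4%) and 5.18% to 15.5% at 14 days (12.3%). At 14 days against 3 days it ran from 1.7% to 3.65% (3.39%). Of the 37 called changes, 12 held in all 12 fits with 1 array left out. With the Gapdh ratio as a covariate the counts were 2 of 36 in the F-test (5.9% over all genes), 0 for 3 days and for 14 days against 0 hours or 2 hours (0.0575% to 0.805%), and 3 at 14 days against 3 days (3.54%). With the muscle marker mean they were 11 of 36 in the F-test (8.48%) and 5 at 2 hours against 0 hours, all down (5.46%). They were 0 at 3 days and at 14 days against 0 hours (0.144% and 0.374%). Against 2 hours they were 0 at 3 days (1.01%) and 5 at 14 days (3.31%). Without a filter, which tests 47 of these genes among 5599, the count was 0 at 2 hours against 0 hours (2.54%) and 2 at 3 days against 2 hours (3.11%). With the most variable probe set it was 2 at 2 hours (5.38%) and 1 at 3 days (13.6%) against 0 hours. With only the 2 time points in the fit it was 0 at 2 hours (1.81%), 1 at 3 days (6.21%) and 4 at 14 days (4.4%) against 0 hours. The replicate block gave 2 at 3 days against 2 hours (7.36%). Its count in each other comparison stayed within 1.5 times, from 1 at 2 hours against 0 hours (4.26%) to 12 at 14 days against 2 hours (10.6%). The labels do not say if the replicate numbers pair the arrays. The cause of these differences was not tested, and some settings also bring fewer samples or more genes. Signal near the floor limits Vcan and the 11 untested genes. Calls at 14 days against 0 hours rest most on 14 days replicate 1, without which 1 gene was called. Over all genes 3.42% were called without that array, beside 10.2% with all arrays.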
